A study of Mus musculus with 15 samples.

Results

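Collagen chains are the protein strands of the collagens, which wind around each other into a stiff helix and are then secreted, trimmed, laid into fibres, sheets or networks and cross-linked. Fibrillar types I, III and V form the interstitial fibres that thicken in scarred muscle, type IV forms the sheet of the basement membrane around each myofiber and vessel, type VI forms beaded filaments beside it, and the smaller classes decorate fibrils, anchor membranes or line vessels. The members here are all 44 protein-coding mouse genes whose symbol is Col, a type number, the letter a and a chain number, out of 56980 genes in the table. The rule reads the symbol and no measured value. They comprised 11 fibrillar chains, 6 type IV chains, 9 fibril-associated chains (FACIT, with interrupted helices), 6 type VI chains, 2 multiplexins, 3 short-chain network chains, 4 transmembrane chains and 3 others (Col7a1, Col26a1 and Col28a1).

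Bulk RNA-seq came from 15 DBA/2J-mdx mice, which lack dystrophin and model Duchenne muscular dystrophy, and 1 library was made per mouse. The tibialis anterior (TA) muscle of 4 vehicle-treated and 4 D + Q-treated mice was taken at 5 months of age, after 2 months of dosing by gavage that began at 3 months. Hearts of 4 vehicle-treated and 3 D + Q-treated mice were taken at 16 months, after 4 months of dosing that began at 12 months. D + Q is dasatinib, a tyrosine kinase inhibitor, with quercetin, a plant flavonol, given together as a senolytic. Every mouse carried the mdx background and no healthy mouse is among the libraries, so no level here is set against healthy muscle. Tissue, age and length of dosing differed together and cannot be told apart. All 4 D + Q TA mice were labelled male, vehicle TA replicates 1 and 3 male and 2 and 4 female, vehicle hearts 1 and 4 male and 2 and 3 female, and D + Q hearts 1 and 2 female and 3 male. The library labelled male D + Q heart replicate 3 held Xist at 47.2 TPM and the Y-linked gene Eif2s3y at 0.028 TPM, unlike its label, so heart results are also given without it.

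Values are TPM, an abundance scaled for transcript length and to an equal total in each library, which allows levels of different chains to be compared within a mouse but keeps no read depth. The labelled tissues matched their markers. The 6 cardiomyocyte genes summed to 19572 to 25676 TPM in hearts and to 15.6 to 58.8 TPM in TA, and the 7 skeletal fibre genes to 45018 to 55712 TPM in TA and 1330 to 1783 TPM in hearts. Libraries within a group correlated at 0.949 to 0.982 across genes. In bulk tissue, fewer cells of a type and less RNA per cell cannot be told apart.

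Of all 44 chains, 40 to 44 were above 0 TPM in a given mouse, but a few carried most of the transcripts. In vehicle TA the most abundant were Col3a1 at 496 ± 76.5 TPM (mean ± SD, n = 4), Col1a1 at 331 ± 131, Col1a2 at 299.7 ± 90.1 and Col4a1 at 259 ± 43.6 TPM. In vehicle heart the order changed, with Col4a1 first at 157 ± 12.5 TPM, followed by Col3a1 at 76.7 ± 8.04, Col4a2 at 56.4 ± 3.66 and Col15a1 at 46.1 ± 4.79 TPM. At the other end, Col2a1, Col9a1, Col9a2, Col9a3, Col6a4, Col10a1, Col17a1, Col25a1 and Col28a1, many of them chains of cartilage, skin or neurons, reached 0.5 TPM in at most 1 mouse of a tissue and entered none of the comparisons. The chains were tested with limma on log2(TPM + 0.5), together with every gene that reached 0.5 TPM in at least 3 of the mice compared, and every fold change is a log2 difference on that scale, smaller than the true one for low chains. A chain was called where its adjusted p-value (Benjamini-Hochberg over all genes) was under 0.05 and its log2 fold change exceeded 0.5 in size.

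Summed over all chains, TA held 1240 to 2566 TPM of collagen transcripts and heart 498 to 600.
Fibrillar chains made up 61.7% ± 3.57 of that sum in vehicle TA and 30.5% ± 1.75 in vehicle heart (SD, n = 4 each). Type IV chains took 17.3% ± 2.30 and 39.5% ± 2.80, and multiplexins, the vessel-wall and basement membrane chains Col15a1 and Col18a1, 3.57% ± 0.797 and 8.81% ± 0.734. The type VI share was 13.4% ± 0.81 in vehicle TA and 14.5% ± 0.467 in vehicle heart.

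**Figure D1:**
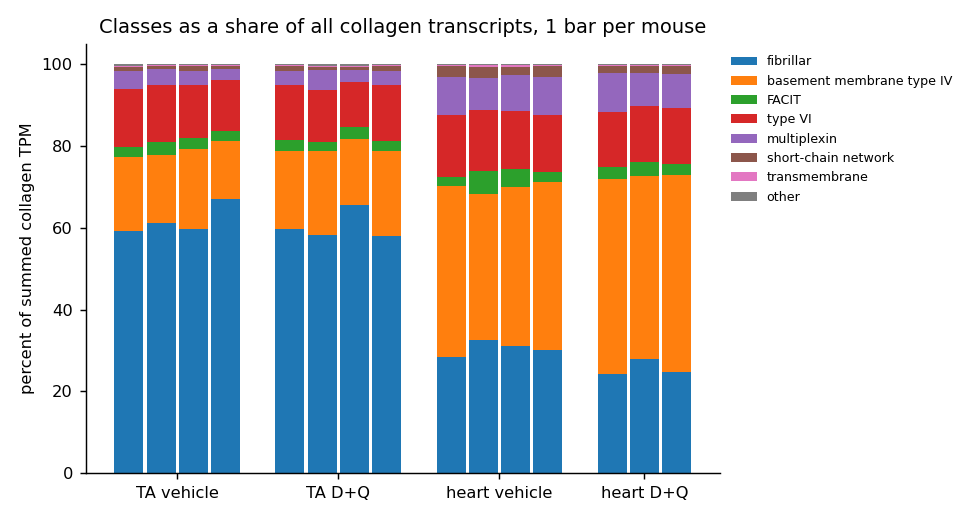
Each bar is 1 mouse and its stacked colours are the percent of summed collagen TPM in each of the 8 classes. Fibrillar chains are the largest share in all 8 TA bars, and type IV chains are the largest in all 7 heart bars.

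Vehicle heart was compared with vehicle TA to ask how the chains differ between the tissues without D + Q. Of 35 chains tested, 24 were lower in heart and 4 higher (limma with labelled sex, adjusted p under 0.05), where 24.1% of all 16893 genes were called lower and 14.8% higher. The median log2 fold change of the tested chains was -1.09, and that of all genes was -0.16. Rescaling by median-of-ratios factors brought the all-gene median to -0.00043, and 23 chains were then lower and 4 higher, while the calls over all genes turned from 2499 higher and 4073 lower to 3331 higher and 2954 lower. Of the 35 chains, Col11a1, Col19a1, Col22a1 and Col26a1 reached 0.5 TPM in no vehicle heart and Col4a6 in no vehicle TA, so their direction follows from the filter. Col7a1, Col8a2, Col20a1 and Col24a1, called lower, reached it in 4 TA but only 1 heart. Col4a4, called higher, reached it in 4 hearts but only 1 TA. These chains also needed 1 tissue to pass the filter, so their direction largely follows from it.

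Col1a1 and Col1a2 encode the strands of type I collagen, the main fibre of tendon and scar. They lie at chr11:94827050-94843868, plus strand and chr6:4504814-4541555, plus strand (GRCm39). Col1a1 was at 204, 415, 235 and 468 TPM in the vehicle TA samples 1 to 4, and 29.9, 31.1, 28.5 and 26.6 TPM were measured in the vehicle hearts 1 to 4. The groups lay far apart, and the log2 fold change was -3.40 ± 0.18 (± SE, adjusted p = 4.42e-07). Col1a2 was at 211, 374, 233 and 381 TPM in TA and 38.8, 42.1, 34.8 and 36.01 TPM in heart, a log2 fold change of -2.92 ± 0.16. For Col3a1, the type III chain that forms finer fibres with type I, the values were 471, 598, 501 and 415 TPM in TA and 70.5, 86.1, 80.6 and 69.6 TPM in heart (-2.68 ± 0.13). Every heart was below every TA for these chains and for the type V chains, which sit inside type I fibrils and set their width. The type V log2 fold changes were -1.63 ± 0.14 for Col5a1, -2.57 ± 0.11 for Col5a2 and -2.31 ± 0.14 for Col5a3.

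The ratio of the type I chains also differed. Col1a1 divided by Col1a2 ranged from 0.966 to 1.23 over the 8 TA libraries and from 0.738 to 0.903 over the 7 hearts, without overlap. Col5a1 divided by Col5a2 ran from 0.743 to 1.07 in TA and from 1.65 to 2.32 in heart, and Col6a3 divided by Col6a1 from 0.76 to 0.986 in TA and from 0.343 to 0.406 in heart. By contrast Col4a1 divided by Col4a2 overlapped between the tissues, from 2.59 to 3.17 in TA and from 2.40 to 2.88 in heart. These ratios are descriptions over all mice, with no test.

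Among chains that bind to fibrils or anchor tissue borders, Col12a1, a FACIT of tendon and ligament, was at 10.5, 19.7, 10.3 and 19.7 TPM in vehicle TA and 1.02, 1.76, 0.652 and 0.668 TPM in vehicle heart (-3.34 ± 0.23, adjusted p = 2.78e-06). Col22a1, a FACIT of the muscle-tendon junction, was at 3.61, 7.86, 3.46 and 5.65 TPM in TA and at most 0.242 TPM in vehicle heart (-3.08 ± 0.24). Col11a1, a fibrillar chain of cartilage and tendon, was at 1.62, 7.797, 2.37 and 6.94 TPM in TA and at most 0.149 TPM in vehicle heart (-2.87 ± 0.32). Col22a1 and Col11a1 passed the filter only through TA, and their size depends on the pseudocount, from -4.43 to -2.37 and from -4.31 to -2.18 over the alternatives. Tenocyte markers moved the same way, all 6 of them summing to 199 to 765 TPM in vehicle TA and to 11.7 to 18.7 TPM in vehicle heart, with Kera at 0 in 2 vehicle hearts. Their part in the difference was not tested.

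The 3 abundant type VI chains were lower in heart. Col6a1 was at 77.6, 113, 77.4 and 80.4 TPM in vehicle TA and 30.9, 33.6, 29.00 and 26.3 TPM in vehicle heart, and Col6a2 at 89.9, 129, 85.7 and 101 TPM in TA and 37.6, 40.4, 38.4 and 31.1 TPM in heart. Col6a3, the largest chain of the type VI filament, was at 69.4, 112, 69.7 and 77.7 TPM in TA and 11.95, 12.4, 11.4 and 9.04 TPM in heart. Log2 fold changes were -1.51 ± 0.13, -1.44 ± 0.12 and -2.80 ± 0.15 in that order, and no heart reached the lowest TA for any of the 3. Chains that did not pass the test included Col14a1, a FACIT of fibroblasts (-0.77 ± 0.29, adjusted p = 0.0551), Col15a1 (-0.44 ± 0.19, adjusted p = 0.0927), Col8a1, a short-chain collagen of vessels (-0.33 ± 0.13, adjusted p = 0.0674), and Col27a1, a fibrillar chain best known from cartilage (0.11 ± 0.16, adjusted p = 0.598). Col14a1 was called without TA replicate 4 or without heart replicate 2 (-1.10 and -0.98), and Col15a1 without TA replicate 4 (-0.59).

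Type IV was the one class with called chains in both directions. Its 6 genes lie in head-to-head pairs, whose canonical transcripts in GENCODE M39 overlap at their starts by 317 bases for Col4a1 and Col4a2 (GRCm39 chromosome 8) and by 103 bases for Col4a3 and Col4a4 (chromosome 1), and lie 1282 bases apart for Col4a5 and Col4a6 (chromosome X). The Col4a1 and Col4a2 pair, which builds the common basement membrane, was lower in vehicle heart, with log2 fold changes of -0.71 ± 0.13 and -0.66 ± 0.14. The Col4a3, Col4a4, Col4a5 and Col4a6 chains, known best from kidney and epithelial basement membranes, were the 4 called higher. Col4a5 was at 1.38, 1.73, 0.994 and 0.768 TPM in vehicle TA and 8.39, 9.46, 8.16 and 8.299 TPM in vehicle heart (2.43 ± 0.19, adjusted p = 6.93e-06). Col4a4 was at 0.845, 0.367, 0.417 and 0.375 TPM in TA and 3.296, 2.804, 2.38 and 2.54 TPM in heart (1.72 ± 0.18), and Col4a3 at 0.945, 0.754, 0.519 and 0.309 TPM in TA and 1.85, 1.48, 1.09 and 1.68 TPM in heart (0.86 ± 0.20). Col4a6 did not exceed 0.121 TPM in vehicle TA and was at 0.949, 1.87, 1.09 and 0.984 TPM in heart (1.56 ± 0.19). It passed the filter only through heart, so its direction follows from the filter. Col4a4 reached 0.5 TPM in only 1 vehicle TA, so its direction largely follows from the filter as well. No vehicle heart was as low as any vehicle TA for these 4 chains, although Col4a1 stayed far more abundant than any of them in both tissues. With median-of-ratios scaling Col4a2 had a log2 fold change of -0.48, under the minimum fold, and was not called.

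**Figure D2:**
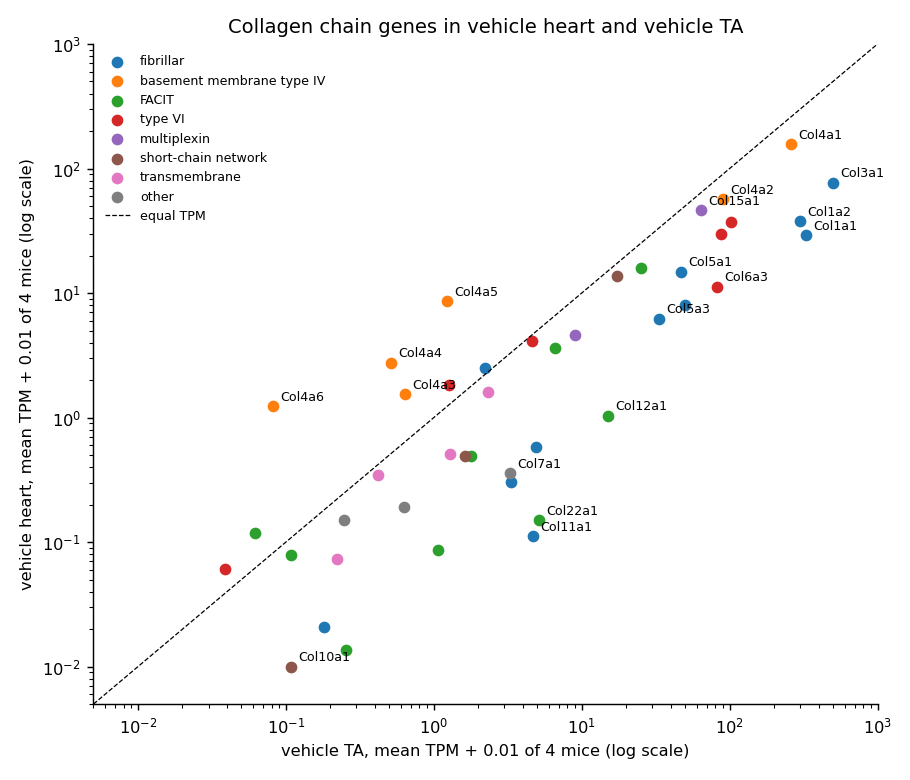
Each point is 1 of the 44 chains, placed by its mean TPM + 0.01 in 4 vehicle TA (x axis) and 4 vehicle hearts (y axis) on log scales and coloured by class, with a dashed line at equal levels. Fibrillar and type VI chains lie mostly under the line, Col4a3 to Col4a6 lie above it, and Col4a1 and Col4a2 sit just under it.

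The same tissue comparison in D + Q-treated mice uses other animals. Of 33 chains tested, 22 were lower in heart and 2 higher (limma, adjusted p under 0.05), where 21.2% of all 16381 genes were called lower and 15.6% higher. The type I chains again stood far apart, with log2 fold changes of -3.33 ± 0.17 for Col1a1 and -3.02 ± 0.18 for Col1a2, and Col12a1 had -3.38 ± 0.37. Col7a1, the chain of anchoring fibrils, was at 4.39, 3.16, 3.93 and 4.36 TPM in D + Q TA and did not exceed 0.0548 TPM in D + Q heart (-3.00 ± 0.16). It passed the filter only through TA, like Col11a1, Col24a1, Col19a1, Col22a1 and Col8a2. The direction of these 6 chains, all among those called lower, follows from the filter. Col13a1 reached 0.5 TPM in 1 D + Q heart, and Col11a2, Col12a1 and Col20a1 in 2, against 4 D + Q TA for each. The hearts alone would not have met the filter for these chains, also called lower, so they too entered through TA. Col4a5 (2.37 ± 0.19) and Col4a4 (1.02 ± 0.21) were the 2 chains higher in heart, while Col4a3 (0.16 ± 0.15, adjusted p = 0.437) and Col4a1 (-0.40 ± 0.25, adjusted p = 0.244) did not pass. Col4a1 was called lower without D + Q TA replicate 3 (-0.62, adjusted p = 0.0143). With labelled sex in the model, 17 were lower and 1 higher (2569 and 1514 of all genes), and Col4a4 was no longer called (log2 fold change 0.80, adjusted p = 0.101). That sex term rests on D + Q heart replicate 3, whose label its Xist level goes against. By expression all 4 D + Q TA mice were male and all 3 D + Q hearts female, so sex and tissue cannot be told apart in this comparison. With median-of-ratios scaling the chains split into 22 lower and 3 higher, and the calls over all genes turned from 2556 higher and 3472 lower to 3052 higher and 2949 lower.

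D + Q was then set against vehicle in the heart, to ask whether collagen transcripts differ after senolytic dosing in old dystrophic mice. None of the 27 chains tested was called (limma with labelled sex), where 0.316% of all 16132 genes were. The smallest adjusted p-values were 0.0934 for Col3a1, 0.0958 for Col23a1, 0.0977 for Col1a2 and 0.09800 for Col5a3. At an unadjusted p under 0.05 and the minimum fold, 6 chains were lower and 1 higher (Col5a3), with 3.79% of all genes lower and 1.3% higher by that rule. At an unadjusted p under 0.05 and any fold, 12 were lower and 2 higher, against 7.99% and 9.65% of all genes. In 22 of the 27 the log2 fold change was below 0 (50.5% of all genes), with a median of -0.35, and the median of all genes was -0.0025. Without D + Q replicate 3, whose sex label did not match, 0 of 26 were called, the median was -0.34 and 21 were below 0. With sex taken from expression, by which all 3 D + Q hearts were female, 0 were called, the median was -0.31 and 23 were below 0 (59.9% of all genes). Without vehicle replicate 3, Col1a2 (-0.66, adjusted p = 0.0453) and Col8a1 (-0.68, adjusted p = 0.0391) were called, where 72 of all genes were called lower and 64 higher, and without vehicle replicate 2 the median was -0.19.

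In 10 of the 27 chains every D + Q heart was below every vehicle heart, and in 2 every D + Q heart was above (5.57% and 9.63% of all genes), the latter 7.41% of the chains and so below the share of all genes. The lower chains were Col1a1, Col1a2, Col3a1, Col5a1, Col4a3, Col4a4, Col4a6, Col16a1, Col8a1 and Col23a1, and the higher ones were Col5a3 and Col4a2. The D + Q replicate labelled 3 was the lowest heart for 14 of the 27 chains, and vehicle replicate 2 was the highest for 16.

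Col3a1 and Col1a2 had the smallest p-values among the fibrillar chains. Col1a1 was at 21.2, 25.9 and 19.5 TPM in D + Q hearts 1 to 3 and at 29.9, 31.1, 28.5 and 26.6 TPM in vehicle hearts 1 to 4 (-0.41 ± 0.09, adjusted p = 0.112). Col1a2 was at 27.4, 30.5 and 21.6 TPM in D + Q mice and 38.8, 42.1, 34.8 and 36.01 TPM in vehicle mice (-0.55 ± 0.11, adjusted p = 0.0977). Col3a1 was at 56.7, 67.6 and 54.7 TPM in D + Q mice and 70.5, 86.1, 80.6 and 69.6 TPM in vehicle mice (-0.40 ± 0.07, adjusted p = 0.0934). The highest D + Q heart was replicate 2 for all 3 chains, and it lay close under the lowest vehicle heart, replicate 4 for Col1a1 and Col3a1 and replicate 3 for Col1a2.

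No type V chain was called, and the differences lay on both sides of 0. Col5a1 was at 10.3, 13.3 and 11.9 TPM in D + Q mice and 13.5, 15.6, 15.9 and 14.3 TPM in vehicle mice (-0.33 ± 0.10, adjusted p = 0.163), and Col5a2 was at 5.93, 6.84 and 5.13 TPM in D + Q mice and 7.71, 9.47, 8.62 and 6.28 TPM in vehicle mice (-0.45 ± 0.10, adjusted p = 0.112), with an overlap through vehicle replicate 4. Col5a3 (chr9:20681337-20726418, minus strand), the chain of a less common type V trimer, was at 10.3, 10.1 and 7.68 TPM in D + Q mice and 6.38, 6.57, 6.93 and 5.03 TPM in vehicle mice, so that every D + Q heart was above every vehicle heart (0.50 ± 0.10, adjusted p = 0.09800). The group means were 9.38 ± 1.48 TPM (SD, n = 3) and 6.23 ± 0.828 TPM (SD, n = 4). The remaining fibrillar chains tested, Col11a2 and Col27a1, overlapped between the groups, and Col2a1, Col11a1 and Col24a1 were too low to test in heart.

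The upstream sequences of 5 fibrillar chains are printed because the heart difference lay below 0 for Col1a1, Col3a1, Col5a1 and Col5a2 and above 0 for Col5a3, although none was called and no test of one chain against another was run. Each is the 150 bases before the canonical start site, read 5′ to 3′ on the gene's own strand from GRCm39, and no annotated exon overlaps any of them. Capitals mark, on either strand, the letters of the TATA box (TATAAA), of the CCAAT box (CCAAT) and of the GC box (GGGCGG), with no overlap among the matches.
Col1a1, chr11:94826900-94827049, plus strand: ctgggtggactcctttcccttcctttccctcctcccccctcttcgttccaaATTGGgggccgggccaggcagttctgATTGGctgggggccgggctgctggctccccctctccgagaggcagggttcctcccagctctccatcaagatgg
Col3a1, chr1:45350548-45350697, plus strand: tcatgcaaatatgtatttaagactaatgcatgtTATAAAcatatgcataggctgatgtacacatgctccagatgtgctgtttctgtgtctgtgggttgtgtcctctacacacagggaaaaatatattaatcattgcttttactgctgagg
Col5a1, chr2:27776247-27776396, plus strand: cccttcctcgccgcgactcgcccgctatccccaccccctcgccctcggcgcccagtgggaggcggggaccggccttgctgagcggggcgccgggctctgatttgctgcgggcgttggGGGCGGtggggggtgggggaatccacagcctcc
Col5a2, chr1:45542443-45542592, minus strand: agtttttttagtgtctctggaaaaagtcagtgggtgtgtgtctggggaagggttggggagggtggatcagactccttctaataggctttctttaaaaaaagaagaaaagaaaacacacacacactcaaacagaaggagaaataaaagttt
Col5a3, chr9:20726419-20726568, minus strand: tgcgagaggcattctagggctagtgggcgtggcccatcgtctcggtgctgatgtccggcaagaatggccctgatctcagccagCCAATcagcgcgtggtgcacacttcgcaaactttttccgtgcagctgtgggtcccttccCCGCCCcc
Col1a1 held 2 matches to CCAAT on the opposite strand, from 99 and 73 bases upstream. Col5a3 held 1 match to CCAAT on its own strand from 67 bases upstream and 1 to GGGCGG on the opposite strand, Col5a1 held 1 match to GGGCGG, Col3a1 held 1 match to TATAAA from 117 bases upstream, and Col5a2 held none. Over windows of the same length before 21770 protein-coding genes, CCAAT was found in 27.7%, GGGCGG in 32.6% and TATAAA in 7.29%. Among the 44 collagen windows these matches were found in 11, 20 and 6. These letters describe the windows and do not mark a bound site.

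No type IV chain was called either. Col4a1 was at 184, 178 and 161 TPM in D + Q mice and 174, 145, 154 and 154 TPM in vehicle mice, an overlap through vehicle replicate 1 (0.16 ± 0.08, adjusted p = 0.371). Its partner Col4a2 was at 67.00, 68.2 and 67.3 TPM in D + Q mice and 60.9, 53.4, 57.8 and 53.4 TPM in vehicle mice, every D + Q heart above every vehicle heart (0.26 ± 0.07, adjusted p = 0.122). Col4a3 was at 0.997, 0.793 and 1.01 TPM in D + Q mice and 1.85, 1.48, 1.09 and 1.68 TPM in vehicle mice (-0.44 ± 0.15), and Col4a4 at 2.25, 1.58 and 1.39 TPM in D + Q mice and 3.296, 2.804, 2.38 and 2.54 TPM in vehicle mice (-0.56 ± 0.18), D + Q before vehicle. Col4a6 was at 0.739, 0.765 and 0.455 TPM in D + Q mice and 0.949, 1.87, 1.09 and 0.984 TPM in vehicle mice (-0.63 ± 0.17). For these 3 chains no D + Q heart reached a vehicle heart, with adjusted p-values of 0.196, 0.172 and 0.144. Col4a5, the most abundant of the minor chains, overlapped at 8.94, 7.89 and 7.68 TPM in D + Q mice and 8.39, 9.46, 8.16 and 8.299 TPM in vehicle mice (-0.08 ± 0.09).

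As shares of all collagen transcripts, type IV chains took 46.9% ± 1.63 in D + Q hearts (SD, n = 3) and 39.5% ± 2.80 in vehicle hearts (SD, n = 4). Fibrillar chains took 25.6% ± 1.87 and 30.5% ± 1.75. The type IV shares did not overlap, from 45.0 to 48.1% with D + Q and from 35.7 to 41.8% with vehicle, and neither did the fibrillar shares, from 24.3 to 27.8% and from 28.4 to 32.6%. These shares add up over members and carry no test.

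Other chains that did not overlap in heart came from smaller classes. Col8a1 was at 9.16, 9.35 and 8.76 TPM in D + Q mice and 15.4, 14.99, 10.9 and 13.5 TPM in vehicle mice (-0.54 ± 0.13, adjusted p = 0.112). Col16a1, a FACIT of fibroblasts and smooth muscle, was at 1.697, 2.78 and 1.796 TPM in D + Q mice and 3.31, 4.56, 3.82 and 2.83 TPM in vehicle mice (-0.73 ± 0.17, adjusted p = 0.111), and Col23a1, a transmembrane chain, at 0.769, 0.8402 and 0.613 TPM in D + Q mice and 1.26, 2.27, 1.58 and 1.27 TPM in vehicle mice (-0.80 ± 0.15, adjusted p = 0.0958). The D + Q hearts were closely spaced for Col8a1 and the vehicle hearts were not.

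Type VI chains overlapped between the heart groups. Col6a1 was at 27.4, 29.1 and 24.9 TPM in D + Q mice and 30.9, 33.6, 29.00 and 26.3 TPM in vehicle mice (-0.16 ± 0.08), Col6a2 at 33.8, 35.1 and 30.9 TPM in D + Q mice and 37.6, 40.4, 38.4 and 31.1 TPM in vehicle mice (-0.17 ± 0.08), and Col6a3 at 11.1, 11.7 and 9.76 TPM in D + Q mice and 11.95, 12.4, 11.4 and 9.04 TPM in vehicle mice (-0.07 ± 0.11). None of the 3 had an unadjusted p under 0.05. The remaining type VI chain tested, Col6a6, also overlapped (-0.48 ± 0.20, limma unadjusted p = 0.0455, adjusted p = 0.272). Among the FACITs, Col12a1 was at 0.338, 1.04 and 0.543 TPM in D + Q mice and 1.02, 1.76, 0.652 and 0.668 TPM in vehicle mice (-0.45 ± 0.31), Col14a1 at 12.7, 14.4 and 10.2 TPM in D + Q mice and 8.55, 26.9, 20.2 and 8.18 TPM in vehicle mice (-0.35 ± 0.22), and Col22a1 did not exceed 0.2704 TPM in any heart and was not tested. The Col14a1 levels were high in vehicle hearts 2 and 3 and low in vehicle hearts 1 and 4, with the D + Q hearts between them. Of the multiplexins, Col15a1 was at 49.6, 42.2 and 38.5 TPM in D + Q mice and 51.8, 40.1, 46.7 and 45.8 TPM in vehicle mice (-0.09 ± 0.12) and Col18a1, the source of endostatin, at 3.45, 3.78 and 3.197 TPM in D + Q mice and 4.43, 6.51, 3.903 and 3.61 TPM in vehicle mice (-0.37 ± 0.17), with an overlap for both. Without D + Q replicate 3 the value of Col15a1 was 0.079.

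**Figure D3:**
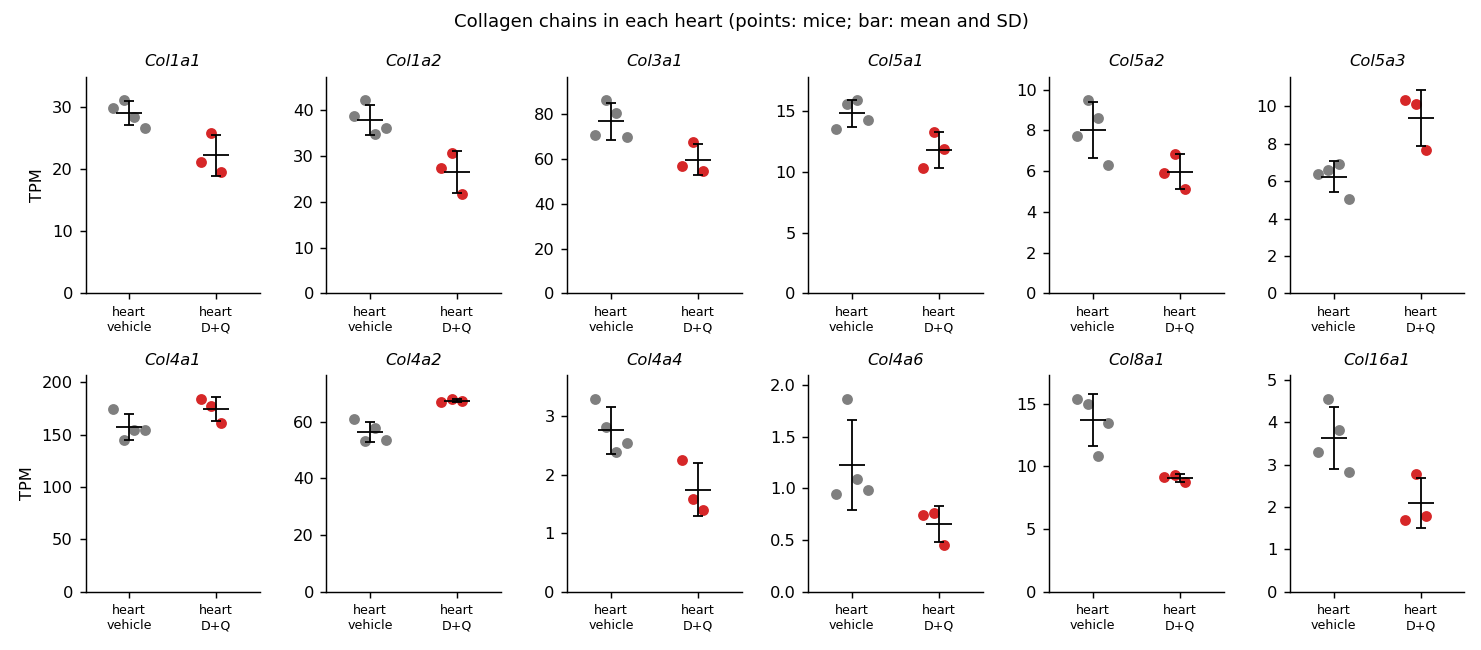
TPM of 12 chains in each heart, with vehicle mice in grey, D + Q mice in red and bars at the mean and SD, on axes that start at 0. Col1a1, Col1a2, Col3a1 and Col8a1 lie lower in all 3 D + Q hearts than in all 4 vehicle hearts, and Col5a3 and Col4a2 lie higher.

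Markers of heart regions and cell types moved with the groups. The 5 atrial genes summed to 864, 4260, 2221 and 1104 TPM in vehicle hearts 1 to 4 and to 382, 427 and 427 TPM in D + Q hearts, and Myl7, the atrial myosin light chain, was at 94.1, 730.1, 541 and 283 TPM in vehicle mice and 3.99, 4.54 and 3.46 TPM in D + Q mice. The 4 epicardial genes summed to 14.97 to 21.2 TPM in vehicle and 10.4 to 13.3 TPM in D + Q hearts, the 7 fibroblast genes to 534 to 789 and 440 to 507 TPM, the 4 ventricular genes to 9629 to 11786 and 13368 to 14346 TPM, and the 6 cardiomyocyte genes to 19572 to 21384 and 24135 to 25676 TPM. The 5 mural genes, of pericytes and vessel smooth muscle, summed to 202 to 232 TPM in vehicle and 237 to 245 TPM in D + Q hearts. Gene by gene the mural list was mixed, with log2 fold changes of 0.23 for Rgs5 and -0.53 for Myh11. Its median was 0.009, and 2 of the 5 mural genes were below 0. The 7 cartilage genes summed to 8.46 to 16.6 TPM in vehicle and 4.51 to 7.74 TPM in D + Q hearts. None of those 7 sums overlapped, while the sums of the other 7 lists did. Apart from the atrial genes, their part in the collagen values was not tested. An atrial score, the mean log2 level of the 5 atrial genes in each heart, was used as covariate in place of labelled sex. The score ran from 5.27 to 7.46 in vehicle hearts and from 2.08 to 2.47 in D + Q hearts. With this score as covariate, 0 chains were called and the median moved to -0.03 (all genes 0.31). In that fit 14 of 27 were below 0 (23.9% of all genes), and Col3a1 and Col5a1 turned to 0.13 and 0.11. Col1a1, Col1a2 and Col8a1 stayed below 0 and did not rise above -0.34, -0.40 and -0.44 in any alternative fit. The atrial score and the treatment were nearly collinear (r = -0.96 over the 7 hearts). The part of atrial tissue and the part of D + Q therefore cannot be told apart.

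In TA, D + Q was set against vehicle at the younger age. None of the 34 chains tested was called (limma with 1 surrogate variable), and 0% of all 16298 genes were, each chain having an adjusted p-value of 0.999. The surrogate variable was 0.70, -0.14, -0.42 and 0.23 in D + Q TA 1 to 4 and -0.13, -0.20, 0.30 and -0.34 in vehicle TA 1 to 4. The TA fold changes are adjusted for it, so they can differ from those of the TPM values beside them. At an unadjusted p under 0.05 and the minimum fold, 2 chains were lower (Col24a1 and Col6a3) and 0 higher, against 1.72% and 0.491% of all genes. At any fold, 6 were lower (Col5a1, Col24a1, Col6a1, Col6a2, Col6a3 and Col8a1) and 0 higher, against 2.36% and 0.638% of all genes. The log2 fold change was below 0 in 29 of 34 chains (66.4% of all genes), with a median of -0.34 where that of all genes was -0.07. With median-of-ratios scaling 27 were below 0 (49.4% of all genes) and the median was -0.27. Without the surrogate variable 0 chains had an unadjusted p under 0.05 and the minimum fold, and with sex in its place, or in males alone, the median was -0.07 (all genes -0.04) and 22 were below 0, near the 62.0% and 62.4% of all genes in those fits. The number lower by that rule was 0 without D + Q replicate 2, D + Q replicate 3 or vehicle replicate 2, and 5, 6, 6 and 8 without D + Q replicate 1, D + Q replicate 4, vehicle replicate 1 and vehicle replicate 3. The counts over all genes moved too, from 280 with every mouse to 313, 142 and 151 and to 336, 404, 330 and 789 in those fits, in the same order. The median was -0.15 without D + Q replicate 3 and -0.19 without vehicle replicate 2.

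No chain separated the TA groups, in either direction, where 0.264% of all genes did so upward and 1.25% downward. The type VI chains were the class with the most low unadjusted p-values. Col6a1 was at 95.1, 56.3, 46.6 and 84.1 TPM in D + Q TA 1 to 4 and 77.6, 113, 77.4 and 80.4 TPM in vehicle TA 1 to 4 (-0.46 ± 0.19). Col6a2 was at 107, 66.1, 50.98 and 99.8 TPM in D + Q mice and 89.9, 129, 85.7 and 101 TPM in vehicle mice (-0.48 ± 0.20), and Col6a3 at 81.8, 51.03, 35.4 and 78.7 TPM in D + Q mice and 69.4, 112, 69.7 and 77.7 TPM in vehicle mice (-0.59 ± 0.23). For each of the 3, D + Q replicates 2 and 3 lay below the vehicle mice, D + Q replicates 1 and 4 lay among them, and vehicle replicate 2 was the highest.

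The same pair of D + Q mice was low in most chains. D + Q replicate 3 was the lowest TA for 18 of the 34 chains and D + Q replicate 2 for 8, and vehicle replicate 2 was the highest for 18. Col3a1 was at 562, 344, 313 and 558 TPM in D + Q mice and 471, 598, 501 and 415 TPM in vehicle mice (-0.33 ± 0.16). Col5a1 was at 53.8, 35.1, 28.8 and 46.7 TPM in D + Q mice and 47.2, 57.2, 46.4 and 38.03 TPM in vehicle mice (-0.35 ± 0.16), Col5a2 at 56.1, 39.1, 32.99 and 53.04 TPM in D + Q mice and 44.1, 59.5, 45.4 and 51.2 TPM in vehicle mice (-0.25 ± 0.17), and Col5a3 at 35.9, 24.04, 17.5 and 33.6 TPM in D + Q mice and 31.3, 42.3, 29.5 and 29.3 TPM in vehicle mice (-0.41 ± 0.19). All 4 chains were high in D + Q replicates 1 and 4 and low in 2 and 3. Col4a1 was at 307, 208, 143 and 302 TPM in D + Q mice and 226, 317, 268 and 226 TPM in vehicle mice (-0.31 ± 0.17), and Col4a2 at 105, 76.7, 54.1 and 108 TPM in D + Q mice and 87.3, 110.1, 91.8 and 71.2 TPM in vehicle mice (-0.24 ± 0.17), with the same split among the D + Q mice. Col14a1 was at 27.9, 17.2, 11.9 and 27.02 TPM in D + Q mice and 19.6, 37.4, 26.1 and 18.2 TPM in vehicle mice (-0.46 ± 0.24), Col15a1 at 63.8, 59.8, 30.7 and 59.9 TPM in D + Q mice and 67.00, 89.4, 53.9 and 46.7 TPM in vehicle mice (-0.38 ± 0.24), and Col18a1 at 11.6, 7.07, 5.15 and 10.5 TPM in D + Q mice and 8.83, 11.8, 8.95 and 6.25 TPM in vehicle mice (-0.25 ± 0.21). Col8a1 was at 25.03, 11.5, 8.22 and 19.6 TPM in D + Q mice and 16.8, 17.5, 19.3 and 15.5 TPM in vehicle mice (-0.44 ± 0.16), where D + Q replicates 1 and 4 exceeded every vehicle mouse and 2 and 3 lay below every one.

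The vehicle TA group held both sexes and the D + Q group males only. In 5 of the 34 chains (14.7%) both females, vehicle replicates 2 and 4, were above all 6 males, near the 9.77% of all genes, and 0 chains had both below (2.43% of all genes). The count is no result about collagens, and the values are given because the type I chains are among them. The 5 were Col1a1, Col1a2, Col11a1, Col12a1 and Col22a1. Col1a1 was at 204, 415, 235 and 468 TPM in vehicle TA 1 to 4 and 299.5, 191, 203 and 225 TPM in D + Q TA 1 to 4 (-0.47 ± 0.28). Col1a2 was at 211, 374, 233 and 381 TPM in vehicle mice and 284, 170.0, 205 and 221 TPM in D + Q mice (-0.44 ± 0.23). The vehicle males lay within the D + Q range for both type I chains.
Col11a1 was at 1.62, 7.797, 2.37 and 6.94 TPM in vehicle mice and 3.76, 1.61, 3.83 and 1.73 TPM in D + Q mice (-0.45 ± 0.47), Col12a1 at 10.5, 19.7, 10.3 and 19.7 TPM in vehicle mice and 19.1, 6.36, 13.4 and 8.95 TPM in D + Q mice (-0.40 ± 0.35), and Col22a1 at 3.61, 7.86, 3.46 and 5.65 TPM in vehicle mice and 4.19, 3.38, 4.32 and 3.42 TPM in D + Q mice (-0.27 ± 0.25). With sex as covariate or in males alone, the log2 fold changes of Col1a1, Col11a1, Col12a1 and Col22a1 turned to 0.048, 0.31, 0.076 and 0.093. All D + Q TA mice were male, so in this group the part of sex was measured among vehicle mice only.

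The sum of tendon-cell genes was also highest in the 2 females. The 6 tenocyte genes summed to 199, 532, 341 and 765 TPM in vehicle TA 1 to 4 and to 344, 191, 468 and 226 TPM in D + Q TA 1 to 4. Among D + Q mice this sum was highest in replicate 3, as were Col11a1 and Col22a1, while Col1a1, Col1a2 and Col12a1 were highest in replicate 1. Tnmd, tenomodulin, was at 11.3, 40.6, 15.3 and 45.3 TPM in vehicle mice and 21.5, 8.22, 30.2 and 10.5 TPM in D + Q mice, and Kera, the cornea and tendon proteoglycan keratocan, at 3.98, 26.9, 10.9 and 35.3 TPM in vehicle mice and 10.3, 3.25, 13.2 and 5.74 TPM in D + Q mice. Their part in the collagen values was not tested. Col3a1 did not follow the females, and Col3a1 divided by Col1a1 was 1.44 and 0.887 in the 2 females and from 1.54 to 2.48 in the 6 males.

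**Figure D4:**
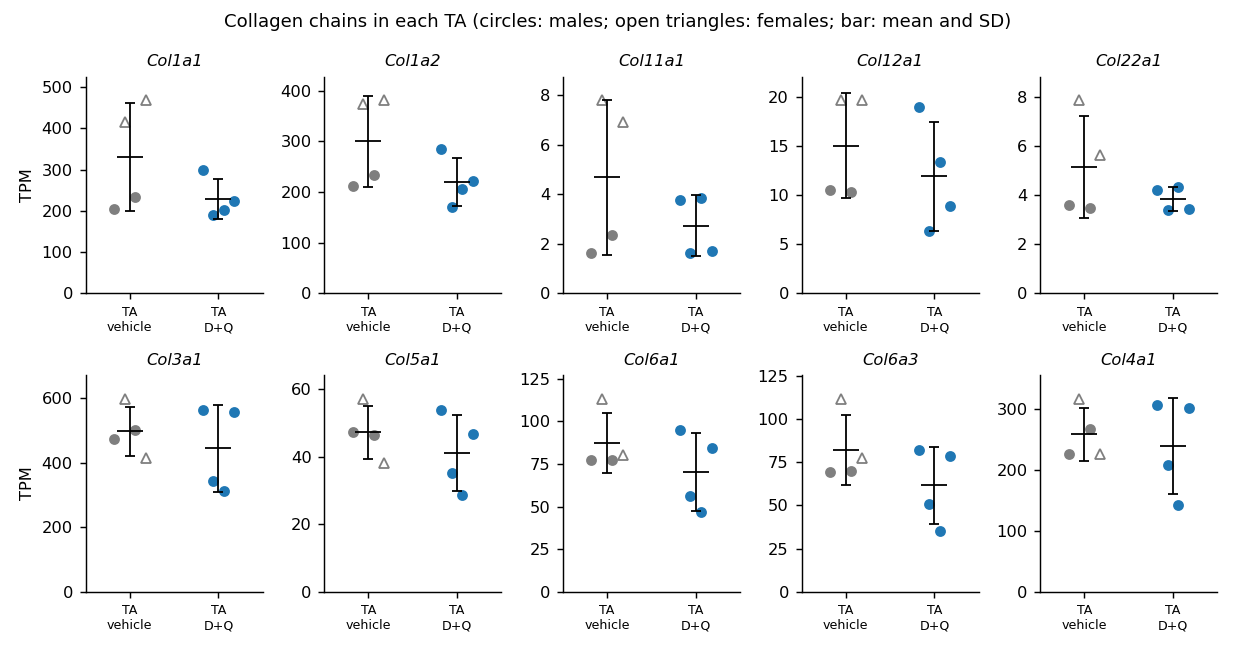
TPM of 10 chains in each TA, with vehicle mice in grey, D + Q mice in blue, circles for males, open triangles for females and bars at the mean and SD, on axes that start at 0. In Col1a1, Col1a2, Col11a1, Col12a1 and Col22a1 the 2 females are the highest of 8, and in Col3a1, Col5a1 and Col4a1 1 of them falls among the males.

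The D + Q difference in heart was then compared with that in TA by an interaction term over all 15 mice. Of 26 chains tested, 0 were called (limma with labelled sex), where 0.0268% of all 14914 genes were. At an unadjusted p under 0.05 and the minimum fold, 1 chain was higher and 0 lower, against 1.25% and 1.67% of all genes. That chain was Col5a3, whose difference of differences was 0.66 ± 0.30 (adjusted p = 1.000). The same term was -0.63 ± 0.30 for Col4a4, -0.44 ± 0.24 for Col5a2 and -0.24 ± 0.29 for Col1a1. With sex taken from expression, 0 chains were higher and 1 lower by the unadjusted rule (120 and 272 of all genes). Without D + Q heart replicate 3, 0 were higher and 0 lower (163 and 212 of all genes). A difference between the tissues in their response was therefore not detected for any chain at this number of mice. On simulated data with the spread of these genes, this term found 56 of 200 genes given a log2 change of 1 in D + Q heart, and 170 of 200 given a change of 2. It made 2 and 5 false calls. The simulated noise was drawn for each gene on its own, with no tissue difference, sex effect or shift shared within a mouse. These counts therefore do not give the power in these mice.

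**Figure D5:**
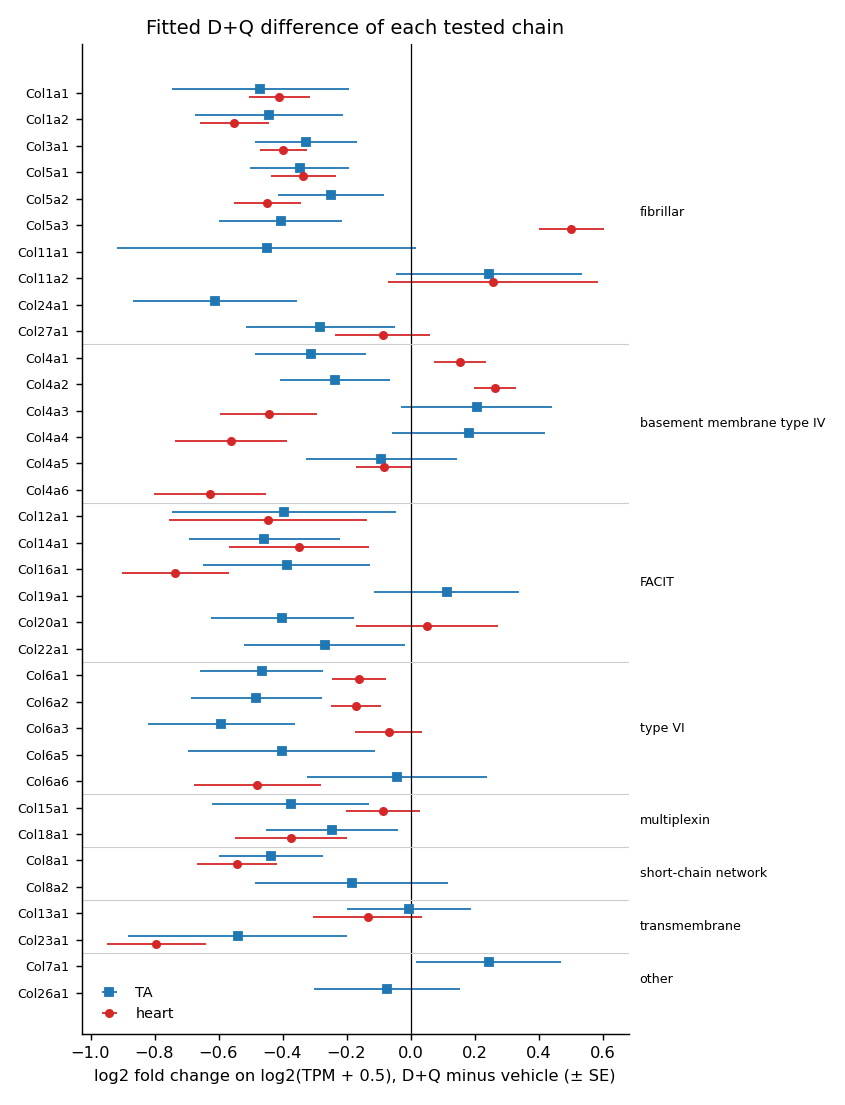
Fitted log2 fold change ± SE of D + Q against vehicle for each chain tested in TA (blue squares) or heart (red circles), grouped by class. Most points lie left of 0 in both tissues, the error bars are wider in TA, and Col5a3 and Col4a2 lie right of 0 in heart.

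Genes that make, handle or break down collagen are given from lists chosen by function. Of 35 genes of processing (hydroxylases, chaperones, procollagen peptidases, cross-linkers), 0 were called in either D + Q comparison. In heart, 32 were tested, of which 24 had a log2 fold change below 0, and at an unadjusted p under 0.05 and any fold 8 were lower and 1 higher, where 50.5%, 7.99% and 9.65% of all genes were below 0, lower and higher. The smallest p-values belonged to Plod2, a lysyl hydroxylase whose mark stabilises cross-links (-0.36 ± 0.08, adjusted p = 0.111), Adamts3, a procollagen N-peptidase (0.59 ± 0.16, adjusted p = 0.137), and Sparc, a collagen-binding matrix protein (-0.27 ± 0.07, adjusted p = 0.142). Adamts3 was at 3.48, 2.39 and 2.99 TPM in D + Q and 1.495, 1.76, 2.19 and 1.55 TPM in vehicle hearts, every D + Q heart above every vehicle heart. In TA, 32 of 35 lay below 0 (66.4% of all genes) and 0 had an unadjusted p under 0.05, with Plod2 at -0.57 ± 0.28, Adamts3 at -0.61 ± 0.31 and Crtap, a partner of prolyl hydroxylase, at -0.38 ± 0.19.

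Of 19 genes for collagen receptors and degradation, 0 were called in either D + Q comparison. In heart 14 were tested, with 5 lower and 1 higher at an unadjusted p under 0.05 and any fold, against the same 7.99% and 9.65%. Ctsk, cathepsin K, which cleaves helical collagen, was at 4.35, 4.02 and 2.19 TPM in D + Q and 4.495, 6.64, 5.54 and 3.98 TPM in vehicle hearts (-0.62 ± 0.12, adjusted p = 0.0959). Ddr2, a receptor kinase for fibrillar collagen, was at 9.49, 8.58 and 8.38 TPM in D + Q mice and 10.3, 11.97, 11.7 and 10.8 TPM in vehicle mice (-0.35 ± 0.07, adjusted p = 0.103), and Mmp14, a membrane-bound collagenase, at 14.9, 15.2 and 12.4 TPM in D + Q mice and 11.7, 12.02, 10.8 and 9.13 TPM in vehicle mice (0.33 ± 0.10, adjusted p = 0.167). Every D + Q heart was below every vehicle heart for Ddr2 and above for Mmp14, and the groups overlapped for Ctsk. In TA 17 were tested, 11 lay below 0 (66.4% of all genes) and 0 had an unadjusted p under 0.05, with Itga1, a subunit of a collagen-binding integrin, at -0.37 ± 0.18, Mmp2, a gelatinase, at -0.29 ± 0.15 and Mmp13, a collagenase, at 1.09 ± 0.68. Between the vehicle tissues, 16 processing genes were lower in heart and 2 higher of 35 tested, and 9 receptor and degradation genes were lower and 0 higher of 17 tested, where 24.1% of all genes were lower and 14.8% higher.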

How the data were processed

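Bulk RNA-seq of TA and heart from 15 DBA/2J-mdx mice was analysed. The authors trimmed reads with Trim Galore 0.6.10, used Salmon 1.10.3 with GRCm39 and tximport for gene-level values, and deposited a table of TPM, with 56980 genes, of which 56236 identifiers were found in GENCODE M39. The authors' annotation release is not given in the sources used here. TPM keeps no read depth, so precision rests on the spread between mice alone, and count-based tests were not run.

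The fits used limma 3.58.1 in R 4.3.3, on log2(TPM + 0.5) for genes that reached 0.5 TPM in 3 or more of the mice compared (for the interaction, of each tissue), with trended eBayes. The model for TA included 1 surrogate variable estimated in 5 iteratively re-weighted rounds, the heart, vehicle tissue and interaction models held labelled sex, and the D + Q tissue model held none. Genes were called at a Benjamini-Hochberg adjusted p under 0.05 over all genes, with a log2 fold change of more than 0.5 in either direction. The heart comparison with vehicle and the tissue comparison of vehicle mice share the 4 vehicle hearts, and likewise for the other groups.

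Members are given by class. Values in every mouse are given for the chains of the common types, for chains whose heart or TA groups did not overlap and for the largest tissue differences. The symbol rule that defines the members uses no value, but these genes and the lists were chosen as a subject with earlier results of these data known. The code was tested on simulated data: of 200 genes given a log2 change of 1, the TA model called 52 and the heart model 141, and of 200 given a change of 2, 174 and 178. False calls were 5 in TA and 4 in heart at a change of 1, and 16 and 6 at a change of 2. The noise was independent between genes, so these counts test the code and do not give the power in these mice. Alternatives were pseudocounts of 0.1 and 1, filters of 0.1 TPM, 1 TPM and none, median-of-ratios scaling, no trend, no minimum fold change, other covariates, a replicate block and leaving out each mouse. No libraries were identical. Replicate numbers recur between groups but belong to different animals.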

Additional observations from a re-analysis of the deposited data

Results flagged for a closer look

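In groups of 4 mice, the gap of the highest or lowest mouse to its neighbour was set against the range of the group and compared with the 95% critical value of Dixon for 4 samples. Of 94 such tests on chains with a mean of at least 0.5 TPM, 7 exceeded it, where chance gives about 1 in 20. In vehicle TA, replicate 2 stood high for Col5a3 at 42.3 TPM and for Col6a1 at 113 TPM, with the other 3 mice close together. Vehicle TA replicate 1 stood high for Col4a4 at 0.845 TPM and for Col7a1 at 4.92 TPM, and vehicle TA replicate 4 stood low for Col20a1 at 1.017 TPM. In D + Q TA, replicate 3 stood low for Col15a1 at 30.7 TPM. In vehicle heart, replicate 2 stood high for Col4a6 at 1.87 TPM, and it was also the library with the largest atrial marker sum.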

How the results depend on the processing

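Over 100 results (5 counts of called chains, 5 medians and single-gene fold changes), 1918 alternative values were computed. The count of called chains stayed at 0 under all alternatives in TA and for the interaction, ranged from 25 to 30 between vehicle tissues and from 18 to 28 between D + Q tissues. In heart it was 0 under all alternatives but leaving out vehicle replicate 3, which gave 2, so leaving out each mouse in turn gave 0 to 2.

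With the atrial covariate in heart, log2 fold changes reversed to 2.45 for Col14a1, 0.067 for Col23a1, 0.13 for Col3a1, -0.21 for Col4a1, 0.026 for Col4a5, 0.20 for Col4a6, 0.11 for Col5a1, 0.028 for Col5a2, 0.41 for Ctsk, 0.075 for Ddr2 and 0.27 for Plod2. Col15a1 in heart ranged from -0.19 to 0.079 over the fits that left out 1 mouse, with the sign reversed without D + Q replicate 3. In TA, sex in place of the surrogate variable and males alone reversed Col11a1 to 0.31, Col12a1 to 0.076, Col1a1 to 0.048 and Col22a1 to 0.093. The interaction of Col1a1 reversed to 0.12 with the block and to 0.073 without a covariate. Medians moved in heart to -0.14 without a filter, and between vehicle tissues to -1.45 and -0.82 with pseudocounts of 0.1 and 1. With the block, Col14a1 was called between vehicle tissues, and no other single gene named for a comparison changed its call.
The replicate numbers do not pair the mice, and with the replicate number as a block the counts were 0 in TA, 0 in heart, 29 between vehicle tissues, 22 between D + Q tissues and 0 for the interaction. The cause of these changes was not tested. TPM carries no read depth, so counting error is unknown, most of all for chains near 0.5 TPM.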

Other observations

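Col6a5 and Col6a6, type VI chains related to Col6a3, were high in 2 of the 7 hearts. Col6a5 was at 3.73 and 2.71 TPM in the 2 vehicle hearts labelled male, replicates 1 and 4, at 0.493 and 0.367 TPM in the 2 vehicle females, and at 0.367, 0.315 and 0.385 TPM in D + Q hearts. Col6a6 was at 5.22 and 5.70 TPM in the vehicle males, 2.32 and 3.11 TPM in the vehicle females, and 2.63, 2.14 and 2.54 TPM in D + Q hearts. All 3 D + Q hearts held Xist at 47.2 TPM or more and the Y-linked gene Ddx3y at 0.172 TPM or less. In TA, Col6a5 ranged from 0.451 to 1.94 TPM over 6 males and was at 1.29 and 0.580 TPM in the 2 females, so the 2 sexes overlapped there. The pattern was noticed in these values and was not tested.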
